A study of Bos taurus with 48 samples.

Results

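In bovine cumulus-oocyte complexes (COCs), 131 genes were expressed in both the oocyte and the outer cumulus cells and had levels that differed widely from one oocyte to the next. They were chosen among 5939 shared genes, which had more than 0.5 FPKM (fragments scaled to the length of the transcript and to the total of the library) in all 16 oocytes and in 8 or more of the 16 outer cumulus libraries. A shared gene was a member when the standard deviation (SD) of its log2(FPKM + 1) over the 16 oocytes was 1.2 or more. The members made up 2.21% of the shared genes and were drawn from the 24616 genes listed. Because they were selected on their spread between oocytes, that spread is described here and not tested.

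A fully grown oocyte of an antral follicle holds a large store of maternal mRNA and transcribes little, and it relies on this store during meiosis and the first cleavages of the embryo. Cumulus cells are the granulosa cells that surround it. They reach the oocyte through fine projections across the zona pellucida and exchange metabolites and small molecules with it through gap junctions, so a gene expressed on both sides can be followed in germ cell and somatic cells of the same complex.

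The COCs came from follicles of Bos taurus ovaries obtained at a slaughterhouse, with no treatment, and were selected by their morphology. Trypsin and pipetting separated each COC into the outer layer of cumulus cells (outerCC), the layers nearest to the zona pellucida (innerCC) and the denuded oocyte. Each of these 3 sample types gave 1 polyA+ RNA library per COC, made with SMART-seq2, a protocol for very small amounts of RNA, so that 16 COCs gave 48 libraries. Titles number the COCs from 176 to 192, with 1 number for all libraries of a complex, and the sources used here do not say which animal or collection batch a COC belongs to.

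The FPKM table does not give the depth of each library, and the authors' counts were not used here. In the oocytes the FPKM sum ranged from 367112 to 657753 (median 609585), and the lowest sums were those of the oocytes of COCs 180 (367112), 190 (410999) and 184 (471322). The number of genes over 0.5 FPKM ranged from 8525 in oocyte 180 to 11340 (median 10359.5). Between 648 and 2639 genes were over 0.5 FPKM in the innerCCs of COCs 176 to 184, against 5876 to 10295 in those of COCs 185 to 192, so innerCC values are given for these 8 COCs. Of 12 oocyte markers, the 6 that could be matched (GDF9, BMP15, FIGLA, NLRP5, ZAR1 and YBX2) summed to 892 to 2031 FPKM in oocytes and to at most 1.75 FPKM in 14 outerCCs, but to 49.1 FPKM in outerCC 190 and 356 FPKM in outerCC 191. Of 18 cumulus markers 6 were matched, and HAS2 among them was higher in oocytes. The other 5 (INHA, INHBA, CYP19A1, APOA1 and CYP11A1) summed to a median of 1.40 FPKM in oocytes and 2315 FPKM in outerCCs, with 191 FPKM in oocyte 191 and 52.6 FPKM in oocyte 181. No blood marker was matched, and VWF was the one matched gene of the endothelium and theca list, at 0.404 to 7.81 FPKM in oocytes.

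Most members were abundant transcripts in a typical oocyte and nearly lost in a few. The median oocyte level was 10 FPKM or more for 111 of the 131 members and 100 FPKM or more for 33, and its median over the members was 41.5 FPKM, against 20.3 FPKM over all shared genes. The highest oocyte exceeded the lowest by a median of 45.2-fold (15.4-fold to 1209-fold), against 5.47-fold for all shared genes. The SD on the log2 scale, on which the members were chosen, ran from 1.2 to 2.63 (median 1.33, all shared genes 0.60). The members just inside the limit were ENSBTAG00000023840 (1.201), ENSBTAG00000019520 (1.203), ENSBTAG00000012072 (1.203) and ENSBTAG00000016250 (1.205). Just outside it were ENSBTAG00000047637 (1.198), ENSBTAG00000012372 (1.198), KANSL2 (1.192), which encodes a subunit of a histone acetyltransferase complex, and ENSBTAG00000006422 (1.192).

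The wide spread was set to a large extent by the oocytes of COCs 180 and 190. Of the 131 members, 81 had their lowest value in oocyte 180, 21 in oocyte 176 and 9 in oocyte 190. A level was counted as far low or far high when it lay at least 2 on the log2 scale, or 4-fold in FPKM + 1, from the median of the 16 oocytes for that gene. Oocyte 180 was far low for 90 members and far high for 14, and oocyte 190 was far low for 46 and far high for 17. Oocytes 176 and 184 were far low for 21 and 19 members, respectively. Over all shared genes, oocyte 180 was far low for 13.5%, oocyte 190 for 3.32% and oocyte 176 for 2.91%.

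Oocytes 180 and 190 departed from the others in the same direction. Both were far low for 44 members and both far high for 11, and a single member was far high in one and far low in the other. Oocyte 184 joined them on the low side for 14 members. Far oocytes lay only on the low side for 93 members, only on the high side for 14, and on both sides for 24. Neither 180 nor 190 was far for 20 members, and for 9 members none of oocytes 176, 180, 184 and 190 was far. Without oocyte 180, 47 of the 131 members still had an SD of 1.2 or more, and without oocytes 180 and 190, 34 did. These were also the oocytes with the lowest FPKM sums. The correlation of a member's level with the FPKM sum over the 16 oocytes had a median of 0.694 (all shared genes 0.208), and it was over 0.7 for 64 members (48.9%, all shared genes 17.2%) and under -0.7 for 8 (6.11%, all shared genes 7.90%). The sum is built from the same values, and its part in the spread was not tested.

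**Figure D1:**
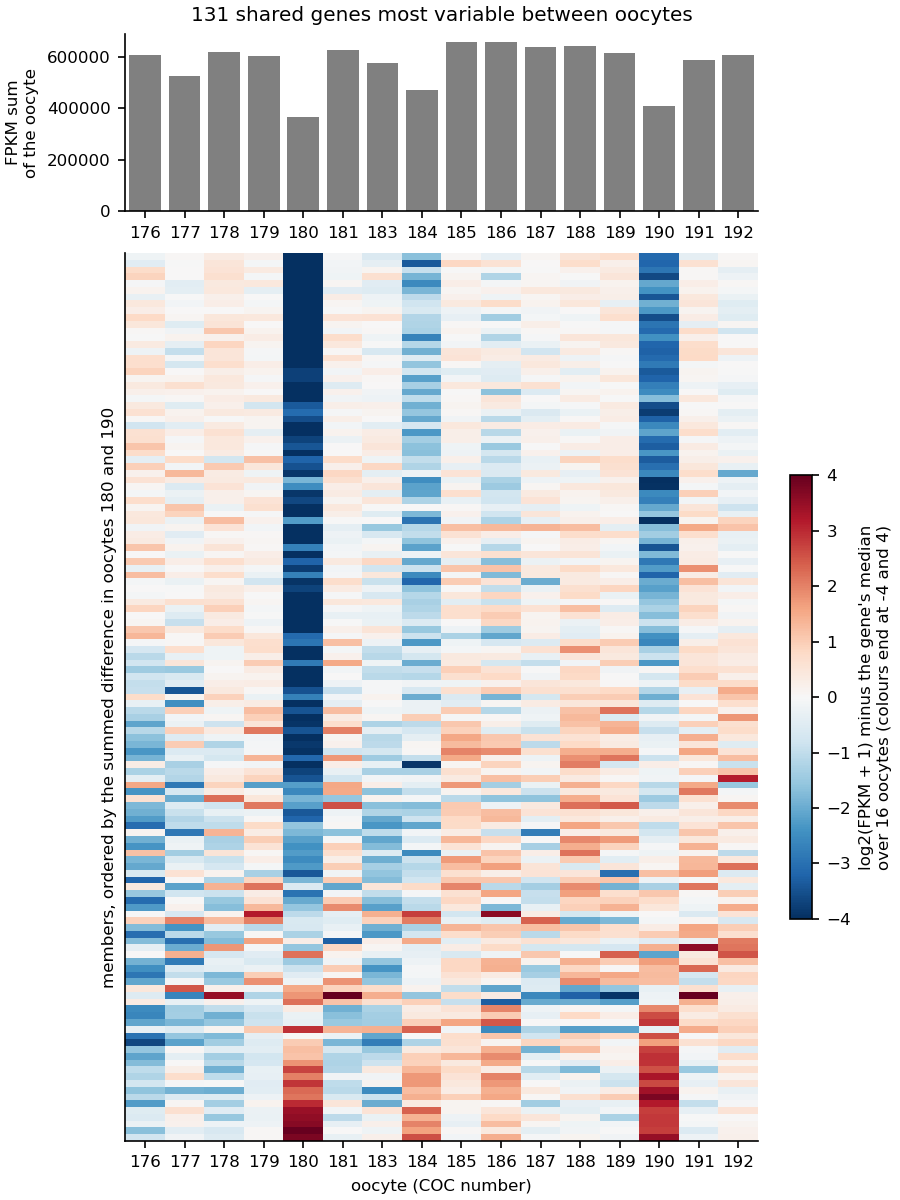
Upper panel, bars: FPKM sum of each of the 16 oocytes. Lower panel: log2(FPKM + 1) of the 131 members (rows) in each oocyte (columns) minus the median of the gene, with blue below and red above it. Oocytes 180 and 190 form the darkest columns, blue for most members and red for a smaller group at the bottom, with a paler column of the same colours in oocyte 184.

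A gene symbol was known for 15 members. Those that fell away in both oocytes 180 and 190 from a higher level in the others encode proteins of the microtubules, DNA repair, ubiquitination, the mitochondrial ribosome and endocytosis. INIP, a subunit of a single-stranded DNA-binding complex of DNA repair, was at 12.01 FPKM in oocyte 180, 42.8 FPKM in oocyte 190 and 145 FPKM in oocyte 184, and between 240.1 and 479 FPKM in the other 13. UBE2E3, a ubiquitin-conjugating enzyme, was at 1.72 FPKM in oocyte 180 and 22.3 FPKM in oocyte 190, with a median of 113 FPKM and a highest value of 160 FPKM. MAPRE2, a protein of growing microtubule ends, was at 3.59 FPKM in oocyte 180 and 8.46 FPKM in oocyte 190, with a median of 101 FPKM and a highest value of 134 FPKM. In each of the 3 genes the other oocytes sat in a narrow band: without oocytes 180 and 190, the SD on the log2 scale was 0.42 for INIP, 0.27 for UBE2E3 and 0.37 for MAPRE2.

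MRPL58 and AP2B1 followed the same order with a wider band. MRPL58, a protein of the large mitochondrial ribosomal subunit that frees stalled ribosomes, was at 7.72 FPKM in oocyte 180, 37.9 FPKM in oocyte 190 and 62.8 FPKM in oocyte 184 (median 140 FPKM, highest 257 FPKM). AP2B1, a subunit of the clathrin adaptor of endocytosis, was at 1.16 FPKM in oocyte 180, 1.68 FPKM in oocyte 190 and 2.34 FPKM in oocyte 184 (median 15.3 FPKM, highest 36.5 FPKM). No other oocyte was below 9.16 FPKM for AP2B1, so these 3 oocytes did not overlap with the rest.

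The opposite pattern was found for EFHD2 and BRD3. EFHD2, a calcium-binding protein, had the lowest median oocyte level of all members, 1.42 FPKM, and was at 29.3 FPKM in oocyte 180, 16.1 FPKM in oocyte 190 and 8.49 FPKM in oocyte 184. BRD3, which reads acetylated histones, was at 67.6 FPKM in oocyte 180 and 76.9 FPKM in oocyte 190, while its median was 7.63 FPKM and its lowest value 0.835 FPKM, in oocyte 176. Over the 16 oocytes, EFHD2 and MAPRE2 correlated at -0.939, and at -0.803 without oocytes 180 and 190.

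BAIAP2 and MRPS2 were highest in oocyte 190 and lowest in oocyte 176. BAIAP2, an adaptor between the cell membrane and actin, ran from 0.632 FPKM to 74.7 FPKM (median 11.7 FPKM), and MRPS2, of the small mitochondrial ribosomal subunit, from 0.590 FPKM to 57.8 FPKM (median 8.81 FPKM). The 2 genes correlated at 0.926 over the oocytes and at 0.896 without oocytes 180 and 190. Oocyte 180 was near the middle for both, at 11.9 and 6.94 FPKM.

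A further group was graded over many oocytes and depended little on oocytes 180 and 190. ALDOA, a glycolytic enzyme, was lowest in oocytes 176 (1.31 FPKM) and 183 (1.49 FPKM) and highest in oocyte 191 (61.7 FPKM), with a median of 11.7 FPKM. SLC25A6, which exchanges ADP and ATP across the inner mitochondrial membrane, was lowest in oocytes 176 (1.16 FPKM) and 183 (2.64 FPKM) and highest in oocyte 191 (49.4 FPKM), with a median of 16.7 FPKM. ALDOA and SLC25A6 correlated at 0.922, and at 0.914 without oocytes 180 and 190. Both are far more abundant in outerCCs, and oocyte 191 was also the one with the most cumulus markers; the part of carried-over cumulus RNA in these values was not tested.

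HSPA1A, the inducible HSP70 chaperone, ran from 4.40 FPKM in oocyte 176 to 95.5 FPKM in oocyte 181 (median 25.3 FPKM). CD81, a tetraspanin of the cell membrane, was lowest in oocytes 180 (0.910 FPKM) and 176 (4.95 FPKM) and highest in oocyte 185 (115 FPKM), with a median of 28.7 FPKM. SEC61A1, the channel through which new proteins enter the endoplasmic reticulum, ran from 1.12 FPKM in oocyte 180 to 34.7 FPKM in oocyte 188 (median 8.49 FPKM). CCDC107, a coiled-coil protein, ran from 7.94 FPKM in oocyte 177 to 139 FPKM in oocyte 191 (median 46.9 FPKM). In these 4 genes the SD on the log2 scale stayed over 1.2 without oocytes 180 and 190: it was 1.46 for HSPA1A, 1.26 for CD81, 1.25 for SEC61A1 and 1.39 for CCDC107. The spread of CD81 rested in part on oocyte 180, with an SD of 1.58 over all oocytes and 1.21 without oocyte 180.

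**Figure D2:**
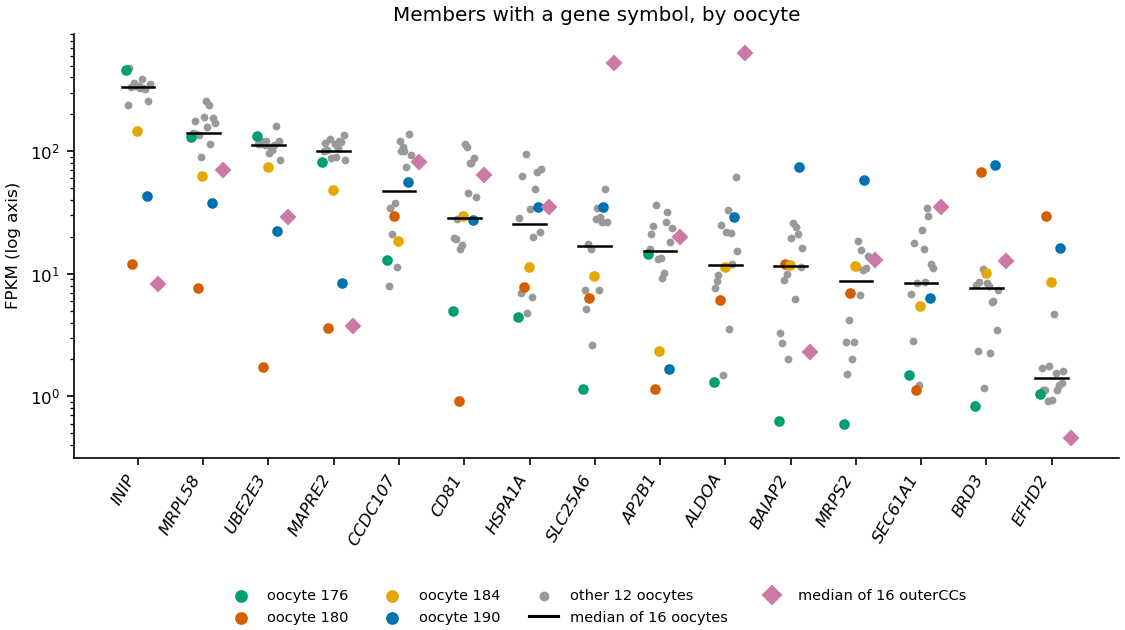
FPKM (log axis) of the 15 members with a symbol in each of the 16 oocytes (points), with the oocyte median (black line) and the outerCC median (diamond). Oocytes 180 and 190 lie below the other points in INIP, MRPL58, UBE2E3, MAPRE2 and AP2B1 and above them in BRD3 and EFHD2, and the outerCC medians of SLC25A6 and ALDOA lie far above every oocyte.

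Few of these symbols belonged to any 1 gene family. Of the 5939 shared genes, 769 had a symbol, and 15 of these were members. Among the 769, 19 encoded mitochondrial ribosomal proteins and 2 of them were members (MRPS2 and MRPL58). There was 1 member each among 11 chaperones (HSPA1A), 7 ubiquitin enzymes (UBE2E3) and 6 solute carriers (SLC25A6). None of 15 genes of the respiratory chain and ATP synthase, 14 translation initiation factors, 9 kinesins, tubulins and actins, 6 splicing factors, 4 histones, 4 cell cycle genes, 3 ribosomal proteins, 2 tRNA synthetases, 2 immediate early genes, 1 proteasome gene and 1 major histocompatibility gene was a member. At the share of members among genes with a symbol, lists this small can hold 0 members by their size alone, so these counts are not read as an absence. Zinc fingers, metallothioneins, mitochondrially encoded genes and genes of blastocyst development were also listed, but no shared gene was matched to them. Symbols were known for 11.5% of the members, so the other members could not be placed in these lists.

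The member with the widest spread, ENSBTAG00000017863, was one of the most abundant transcripts of cumulus cells. It ran from 2494 to 10593 FPKM in outerCCs (median 7019 FPKM) and was at a median of 25.0 FPKM in oocytes. Among oocytes it ran from 0.713 FPKM in oocyte 189 to 862 FPKM in oocyte 191, with 430.3 FPKM in oocyte 181 and 285 FPKM in oocyte 178. The same 3 oocytes held the most of the 5 cumulus markers (191, 52.6 and 10.9 FPKM), and its level correlated at 0.789 with that of INHA, a subunit of inhibin made by granulosa and cumulus cells. It was the only member whose correlation with INHA was over 0.7, a limit passed by 0.168% of the shared genes. Without oocyte 191 its SD was 2.35.

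Other members of wide spread fell into the patterns above. ENSBTAG00000048137 had a median of 123 FPKM and was at 1.06 FPKM in oocyte 180, 11.1 FPKM in oocyte 184 and 12.8 FPKM in oocyte 190, with every other oocyte at 89.3 FPKM or more. ENSBTAG00000004279 had a median of 530.2 FPKM and was at 5.89 FPKM in oocyte 180 and 60.4 FPKM in oocyte 190. ENSBTAG00000047809 had a median of 110.1 FPKM and was at 0.823 FPKM in oocyte 180, and ENSBTAG00000031800 had a median of 38.6 FPKM and was at 0.749 FPKM there. ENSBTAG00000026232 was on the high side, at 67.5 FPKM in oocyte 180 and 144 FPKM in oocyte 190 against a median of 13.2 FPKM.

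In contrast, ENSBTAG00000009200 was spread over the whole set of oocytes. It was at 88.7 FPKM or more in oocytes 179, 185, 188 and 191, up to 108 FPKM, and at 10.3 FPKM or less in oocytes 177, 181, 186, 187, 189 and 190, down to 4.44 FPKM. ENSBTAG00000025822 ran from 5.38 FPKM in oocyte 177 to 155 FPKM in oocyte 185 (median 46.3 FPKM), and ENSBTAG00000004514 from 1.202 FPKM in oocyte 180 to 58.7 FPKM in oocyte 181 (median 9.05 FPKM). ENSBTAG00000043482 was at 1.19 FPKM in oocyte 180 and 1.70 FPKM in oocyte 184, but at 47.6 FPKM in oocyte 190, close to its median of 39.4 FPKM. ENSBTAG00000043561 was highest in oocytes 180 (2537 FPKM) and 184 (1696 FPKM) and lowest in oocyte 186 (56.1 FPKM).

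Members varied together from oocyte to oocyte. Of the 8515 pairs of members, 1218 (14.3%) had a correlation over 0.85 across the 16 oocytes, against 1.16% of the pairs of all shared genes. A correlation under -0.85 was found for 3.49% of the pairs of members and 0.382% of those of shared genes. Without oocytes 180 and 190 these shares were 3.68% and 0.928% for the members, and 0.527% and 0.0921% for the shared genes. Genes chosen for a wide spread that the same oocytes set share those oocytes, so the shares are descriptions. MAPRE2 had a correlation over 0.85 with 47 other members, INIP with 45 and UBE2E3 with 43, whereas ALDOA and CCDC107 had 1 each.

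The low level of these members in oocyte 180 was accompanied by low levels in its outerCC library, where nearly all shared genes were low. The outerCC of COC 180 had the lowest FPKM sum of all outerCCs (161294), and its level of the 90 members that were far low in the oocyte was, in the median, -1.82 on the log2 scale from the median of the 16 outerCCs, with -1.40 over all shared genes. Of these 90 members 95.6% lay below that median, and 97.7% of all shared genes did. The 14 members that were far high in oocyte 180 were also low in this outerCC, with a median of -0.597. Cumulus libraries are made from many cells, and FPKM is scaled to the total of the library. Low values therefore measure neither the number of cells nor the RNA per cell. What lowered the values of this outerCC was not tested. Low levels of this kind were not seen in the cumulus libraries of COC 190, but both of them carried oocyte markers. These markers summed to 49.1 FPKM in the outerCC of COC 190 and 86.7 FPKM in its innerCC, and the part of carried-over oocyte RNA in the values below was not tested. For the 46 members that were far low in oocyte 190, the median was 0.04 in its outerCC and 0.79 in its innerCC relative to the median innerCC of COCs 185 to 192, with -0.09 and 0.62 over all shared genes.

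The oocyte was next compared with the outerCCs, a contrast whose size the choice of members did not use. The choice did ask for more than 0.5 FPKM in all oocytes but in only 8 of the 16 outerCCs, which favours genes higher in oocytes, so the shared genes are the closer background. With limma on log2(FPKM + 1), 67 members (51.1%) were higher in oocytes at a Benjamini-Hochberg false discovery rate (FDR) of 0.01, where 43.4% of all 12428 genes tested and 55.9% of the shared genes were. Another 25 members (19.1%) were lower, where 34.3% of all genes tested and 18.2% of the shared genes were. The median difference was 0.97 on the log2 scale over the members, 0.89 over the shared genes and 0.25 over all genes tested. The members were thus called in shares close to those of the shared genes from which they were drawn. When the libraries were scaled to the same 75th percentile, the median of all genes moved to -0.25, and 53 members were higher and 40 lower, where 36.2% and 44.3% of all genes tested were. Without COCs 180 and 190 the counts were 67 and 29, where 43.5% and 36.1% of all genes tested were. The oocyte was higher than its own outerCC in all 16 COCs for 33 of the members called, and lower in all 16 for 15.

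The largest increase in oocytes was that of ENSBTAG00000026085, the most abundant member, at 92.7 to 2695 FPKM (median 1731 FPKM) in oocytes and a median of 0.823 FPKM in outerCCs (log2 difference 8.77 ± 0.63 (SE), adjusted p = 3.3e-15). ENSBTAG00000023697 (7.64 ± 0.51, adjusted p = 4.82e-16), ENSBTAG00000033344 (6.07 ± 0.43, adjusted p = 1.73e-15) and ENSBTAG00000017651 (5.76 ± 0.47, adjusted p = 8.22e-14) came next, with median oocyte levels of 523, 579 and 308 FPKM. The outerCC values of these 4 genes were not all low: in outerCC 191, which carried oocyte markers, they were at 475, 134, 160 and 98.3 FPKM, while without outerCCs 190 and 191 none was above 7.26 FPKM. Without COC 191 their log2 differences were 9.24, 7.97, 6.36 and 6.03. OuterCC 191 had the highest outerCC value for 40 of the 131 members (30.5%, all shared genes 18.5%). Of these 40 members, 38 were called higher in oocytes, where 55.9% of all shared genes were. The share called among the 1099 shared genes highest in outerCC 191 was not computed.

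Other abundant members were ENSBTAG00000014418, at 115 to 1767 FPKM in oocytes and a median of 27.2 FPKM in outerCCs, and ENSBTAG00000030425, at 53.5 to 1338 FPKM and a median of 81.5 FPKM. Among members with a symbol, INIP was higher in oocytes by 4.73 ± 0.44 (adjusted p = 4.5e-12) and MAPRE2 by 3.92 ± 0.39 (adjusted p = 2.12e-11), in 16 of 16 COCs each, so oocytes 180 and 190 also exceeded their own outerCCs. BAIAP2 (1.83 ± 0.37, adjusted p = 3.33e-05), UBE2E3 (1.60 ± 0.39, adjusted p = 0.000384), EFHD2 (1.17 ± 0.31, adjusted p = 0.000742) and MRPL58 (0.94 ± 0.33, adjusted p = 0.00927) were also higher. The calls of UBE2E3, EFHD2 and MRPL58 were lost when libraries were scaled to the same 75th percentile, with adjusted p = 0.0149, 0.0215 and 0.372 in limma, and that of MRPL58 was lost when any of 14 single COCs was left out.

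The largest decrease was that of ENSBTAG00000017863 (-7.89 ± 0.62, adjusted p = 3.26e-14), described above. ENSBTAG00000011969 had a median of 6.59 FPKM in oocytes and 922 FPKM in outerCCs (-6.68 ± 0.44, adjusted p = 2.79e-16), and ENSBTAG00000013411 had medians of 48.1 and 1938 FPKM (-5.38 ± 0.38, adjusted p = 2.09e-15). All 3 were highest, among oocytes, in oocyte 191. The genes of energy metabolism followed: ALDOA (median 633 FPKM in outerCCs) was lower in oocytes (-5.36 ± 0.41, adjusted p = 2.37e-14), as was SLC25A6 (median 523 FPKM, -5.09 ± 0.36, adjusted p = 2.89e-15), both in 16 of 16 COCs. SEC61A1 was lower as well (-1.92 ± 0.40, adjusted p = 4.1e-05), in 15 of 16 COCs. For 6 members with a symbol the difference did not pass the FDR: CD81 (-0.88), BRD3 (-0.62), HSPA1A (-0.77), MRPS2 (-0.96), CCDC107 (-0.68) and AP2B1 (-0.47).

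**Figure D3:**
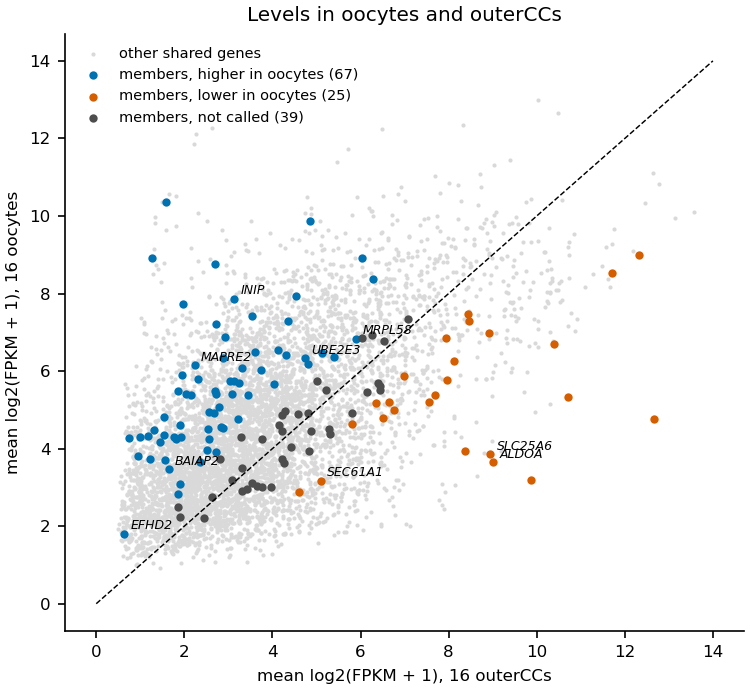
Mean log2(FPKM + 1) in 16 outerCCs (horizontal axis) and in 16 oocytes (vertical axis) of the shared genes (grey) and of the members, coloured by the call of limma at an FDR of 0.01, with equality on the dashed line. The 67 members higher in oocytes lie over a wide range of oocyte levels, and ALDOA and SLC25A6 stand among the 25 lower members that are abundant in outerCCs.

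The innerCCs of COCs 185 to 192 were compared with the outerCCs of the same COCs to ask whether the members changed with distance from the oocyte. No member was higher in innerCCs (0 of all genes tested, 0%), with 0 members at an unadjusted p under 0.05. The 3 members lower in limma were SEC61A1 (-1.96), ENSBTAG00000045748 (-1.89) and ENSBTAG00000031800 (-1.33), each with an adjusted p = 0.00997, where 1.53% of all genes tested were. The 3 calls lay at the edge of the FDR and were lost with a pseudocount of 0.1, a replicate block for the COC, or a covariate for the number of genes. The median difference was -1.01 over the members, -0.84 over the shared genes and -0.71 over all genes tested.

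Spread in the outerCCs was not used to choose the members. The median SD of log2(FPKM + 1) over the 16 outerCCs was 0.88 for the members and 0.70 for all shared genes, and 21 members (16.0%) reached 1.2 there, against 148 shared genes (2.49%). Without outerCC 191, 12 members (9.16%) and 91 shared genes (1.53%) did. In the innerCCs of COCs 185 to 192 the median SD was 0.94 for the members and 0.77 for the shared genes. The members were thus more variable than other shared genes also in cumulus cells, as a description with no test. ENSBTAG00000026085 had the highest outerCC SD, 2.41, which was 1.46 without outerCC 191, and it was followed by ENSBTAG00000032057 (2.11) and ENSBTAG00000047547 (1.93). EFHD2 had the lowest, 0.41, and its outerCC levels ran from 0.0880 to 1.57 FPKM. All 16 outerCCs were over 0.5 FPKM for 100 members, and all 8 innerCCs of COCs 185 to 192 for 71.

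**Figure D4:**
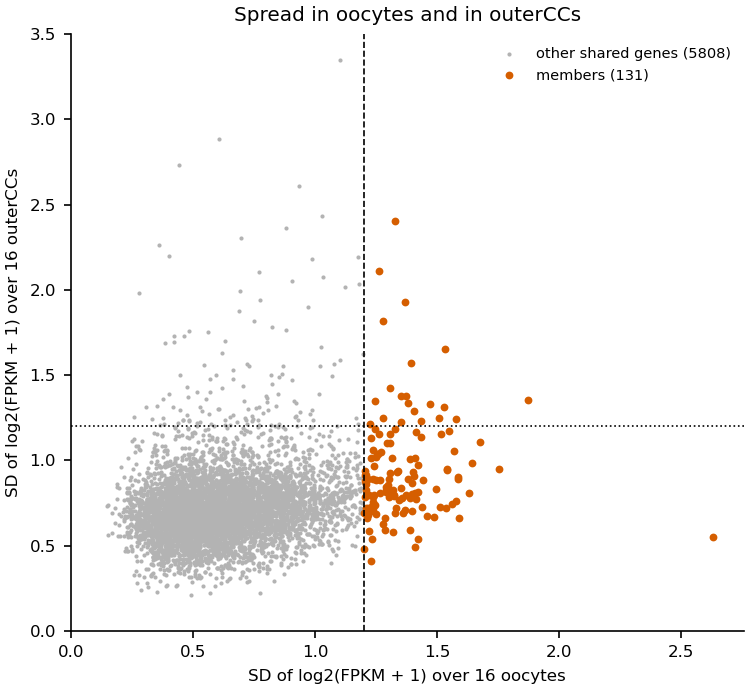
SD of log2(FPKM + 1) over 16 oocytes (horizontal axis) and over 16 outerCCs (vertical axis) for the 131 members and the other 5808 shared genes, with the limit of 1.2 that chose the members dashed and the same value for outerCCs dotted. Members lie right of the dashed line by construction, and 21 of them lie above the dotted line.

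Since each oocyte and outerCC came from the same COC, the level of a member in the oocyte could be set against its level in the outerCC over 16 COCs. No member passed an FDR of 0.05 over the 5939 shared genes (0% of them did, and 0 members with Spearman's rho), with 30 members of positive and 4 of negative correlation at an unadjusted p under 0.05, beside 582 and 267 of all shared genes. The median correlation was 0.275 for the members and 0.0851 for the shared genes, and 98 members (74.8%) and 58.3% of the shared genes were above 0. These values rested on COC 180, whose oocyte and outerCC were both low: without it the medians were 0.00973 and -0.0281, and 6 members had a positive correlation at an unadjusted p under 0.05, as did 2.80% of the shared genes.

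The member with the highest correlation was ENSBTAG00000047547, which did not depend on COC 180. In oocytes it was at 64.8 to 85.3 FPKM in COCs 177, 179, 184 and 187 and at 3.14 and 3.78 FPKM in COCs 188 and 189, and its outerCC level was 6.09 to 519 FPKM. Pearson's r was 0.865 (permutation p = 2e-05, adjusted over all shared genes 0.0620) and Spearman's rho 0.794 (permutation p = 0.00037). The correlation was 0.860 without COC 180, 0.908 without the 2 COCs farthest from the median, 0.840 within COCs 176 to 184 and 0.873 within COCs 185 to 192. In COCs 185 to 192 the oocyte correlated at 0.890 with the innerCC as well.

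Next came ENSBTAG00000032057 with r = 0.847 (permutation p = 4e-05, adjusted 0.0620) and rho = 0.706 (permutation p = 0.0032). It was high in both oocyte and outerCC of COCs 177, 189 and 192 and lowest in both in COC 190, where the outerCC was listed at 0. Its r was 0.707 without the 2 COCs farthest from the median, 0.568 within COCs 176 to 184 and 0.975 within COCs 185 to 192, and the oocyte correlated at 0.2997 with the innerCC. ENSBTAG00000009200 had r = 0.758 (permutation p = 0.001, adjusted 0.160) and rho = 0.706 (permutation p = 0.0029), with 0.687 and 0.845 within the sets. ENSBTAG00000023186 had r = 0.764 (permutation p = 0.0012, adjusted 0.156) and rho = 0.603 (permutation p = 0.015), and r was 0.585 without COCs 180 and 190.

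The most negative correlations were those of BRD3, with r = -0.730 (permutation p = 0.0014, adjusted 0.182) and rho = -0.724 (permutation p = 0.0022), and of ENSBTAG00000000040, with r = -0.671 (permutation p = 0.0059, adjusted 0.199) and rho = -0.585 (permutation p = 0.02). Both were high in the oocytes of COCs 180 and 190. Without these COCs r was -0.598 for BRD3 and -0.420 for ENSBTAG00000000040. For BRD3, r was -0.859 within COCs 176 to 184 and -0.468 within COCs 185 to 192. For ENSBTAG00000000040 it was -0.680 and -0.816. With the innerCC of COCs 185 to 192 the oocyte correlated at 0.128 for BRD3 and 0.397 for ENSBTAG00000000040. Among these COCs, oocyte 190 was the highest for both genes (76.9 and 124 FPKM), and its innerCC was at 16.0 and 6.35 FPKM. That innerCC carried oocyte markers, and these correlations were not computed without COC 190. The positive sign is therefore not read as a difference between the layers.

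**Figure D5:**
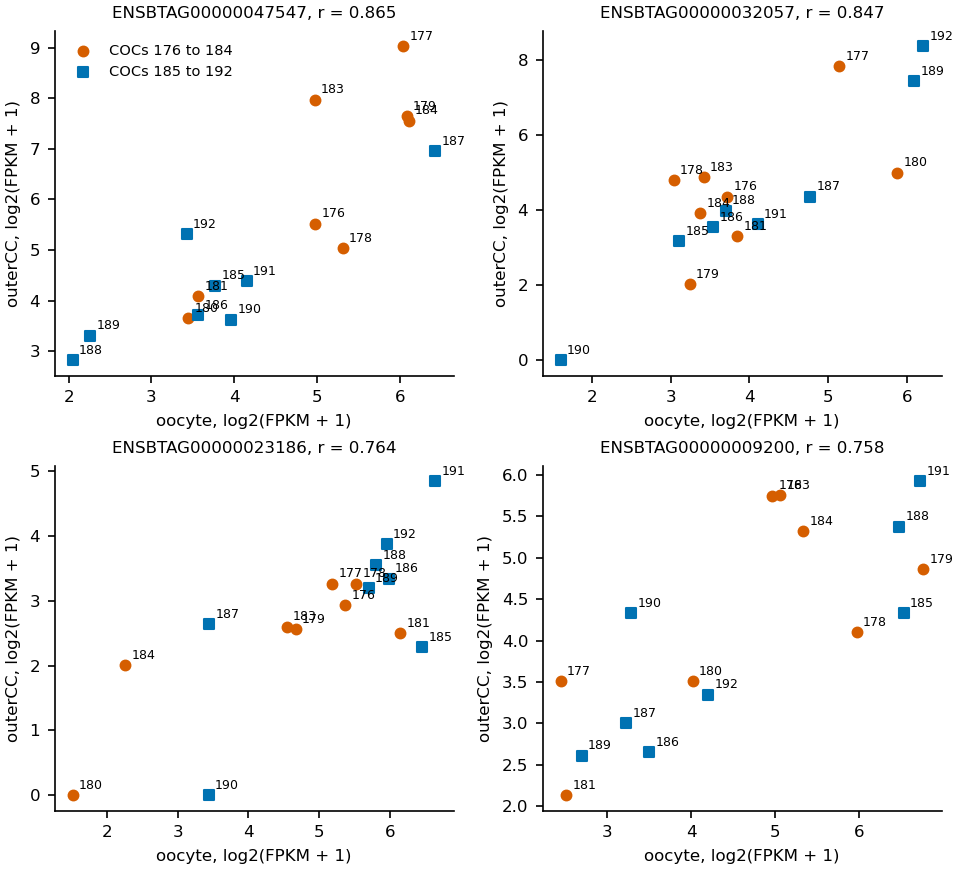
Level in the oocyte (horizontal axis) and in the outerCC (vertical axis) of the same COC, log2(FPKM + 1), for the 4 members with the highest correlation, with each of the 16 COCs labelled by its number. In ENSBTAG00000047547 and ENSBTAG00000009200 the COCs spread along the whole range, while in ENSBTAG00000023186 COC 180 lies at the lower left end.

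The oocytes can also be set out by the COC number. The sets of COCs 176 to 184 and 185 to 192, 8 each, were read from the innerCC libraries and are not groups of the study, and whether they coincide with its collection batches cannot be told. The members were selected on these same oocyte values, so a gene that is split between the sets enters the list through that split, and no test is read from it. As a description, limma at an FDR of 0.05 called 15 members (11.5%) higher in the oocytes of COCs 185 to 192, where 4.3% of all genes tested were, and 1 member lower, where 0.523% were. With a covariate for the number of genes, 1 member was called higher. Within sets, the SD was still 1.2 or more for 95 of the 131 members.

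CCDC107 was at 7.94 to 37.6 FPKM in the oocytes of COCs 176 to 184 and 56.3 to 139 FPKM in those of COCs 185 to 192, with no overlap. CD81 was at 0.910 to 29.3 FPKM and 27.5 to 115 FPKM, and oocytes 179 and 184 lay above oocyte 190. ENSBTAG00000015579 was at 3.53 to 114 FPKM and 51.4 to 175 FPKM, with oocyte 180 highest in the earlier set. In the other direction, ENSBTAG00000043559 was at 477 to 2967 FPKM in COCs 176 to 184 and 121 to 823 FPKM in COCs 185 to 192. The sets thus overlapped in all but CCDC107 of these 4 members.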

How the data were processed

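Reads were aligned by the authors to UMD3.1 with STAR 2.5.2. They kept those with 1 match, dropped duplicates (Picard 2.5) and derived FPKM of Ensembl genes with Cufflinks 2.2.1. The deposited FPKM table without filter was used, and the authors' filtered FPKM table and their counts were not used here. These FPKM carry no depth per library, so no counting error was computed. Symbols came from the study's supplementary tables, other genes are given by identifier, and sequences were not analysed here. The members and lists were chosen with earlier results of these data known, and the 15 members with a symbol are named because they have one.

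Genes over 0.5 FPKM in 8 or more libraries of a sample type were tested with limma 3.58.1 (R 4.3.3, eBayes without trend) on log2(FPKM + 1), with Benjamini-Hochberg adjustment over 12428 genes, in the 32 libraries of 2 sample types, 16 innerCC and outerCC libraries, or 16 oocytes. The study's batch term could not be fitted. Correlations used 100000 permutations for the genes printed, with two-sided tests (scipy 1.17.1). The named genes are the members of widest spread, nearest to the limit, of highest and lowest same-COC correlation, of largest change in each comparison and of highest oocyte level. Libraries of 1 number are from the same COC and so paired: the correlation of their deviations from the sample-type means was 0.0221 on average (-0.285 to 0.294 over COCs). Alternatives were a pseudocount of 0.1, scaling to the 75th percentile, no filter, a rank test, the replicate block, the number of genes as a covariate, subtracting the means of the sets of COCs, Spearman's rho and leaving out COCs. Scaling is not given for innerCC against outerCC. Leaving out COCs 180 and 190, and each COC in the tests, was chosen after seeing the data. Scripts were tested on simulated data.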

Additional observations from a re-analysis of the deposited data

How the results depend on the processing

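The number of genes that met the rule was 65 to 161 when any 1 COC was left out, with 65 without COC 180. With scaling to the 75th percentile it was 104, of which 84 were members, and with set means subtracted 107, of which 95 were members. It was 331 with a pseudocount of 0.1, 75 with the number of genes regressed out, 49 without oocytes 180 and 190 and 51 without oocytes 180, 184 and 190. Of the 49 genes, 34 were among the 131 members. For oocyte against outerCC, the count of higher members was 53 to 72 under the alternatives run, and the count of lower members was 22 to 29, apart from 40 with scaling to the 75th percentile; with the replicate block it was 67 and 28.

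For innerCC against outerCC, the 3 lower members became 0 with a pseudocount of 0.1, the replicate block or the covariate, 0 to 5 with 1 COC left out (5 without COC 186, 0 without 185, 187, 188, 189, 191 or 192), and 115 with all 16 COCs, where 77.4% of all genes were lower. Between the sets of oocytes, the 15 higher members became 9 with a pseudocount of 0.1, 1 with the covariate and 4 to 18 with 1 oocyte left out (under 10 without 176, 178, 183, 185, 186, 188, 191 or 192), and the 1 lower member became 0 with a pseudocount of 0.1, the covariate, or without oocytes 180 and 190, and 0 to 2 with 1 left out. For the same COC, 2 members passed the FDR with a pseudocount of 0.1, 0 to 2 with 1 COC left out (2 without COC 178), and the count of positive correlations at an unadjusted p under 0.05 was 7 with Spearman's rho, 6 without COCs 180 and 190 and 6 to 34 with 1 COC left out (6 without COC 180). The median SD of the members in outerCCs was 1.01 with a pseudocount of 0.1, 0.649 with scaling (shared genes 0.438) and 0.789 to 0.910 with 1 COC left out. Of 622 values of 30 single genes under alternatives, 0 changed direction and 72 were no longer called. The replicate block changed no other call named. The cause of these changes was not tested, and, since counts were not used here, neither was the part of depth in the spread between oocytes.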
